A study of Mus musculus with 16 samples.

Results

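The genes described here are those of glycolysis, from the glucose transporters to lactate, together with textbook genes that cells switch on when oxygen is short. They were taken from a fixed list of 40 genes, of which 37 could be read on the array through a probe set naming that gene alone, out of 19937 genes readable in this way. *Gpi1* and *Eno1* had no probe set carrying their name, and *Gapdh* was named only in probe sets that also name other genes, so these 3 have no value. Of the 37, 26 are counted below as hypoxia-induced (known targets of hypoxia-inducible factors). The other 11 are transporters and enzymes of glycolysis outside that count. The split is a choice made for this report, and being among the 11 does not mean that a gene is not induced by hypoxia. The list was drawn up with these data already seen, and its rule names the heart in which the hypoxia-induced genes stood high, so that pattern is given as a description and supports nothing else here.

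Whole hearts of single mouse embryos were measured on Affymetrix Mouse Gene 1.0 ST arrays, 16 in all, with 4 hearts in each of 4 groups. The groups were *Chd7fl/fl;Mesp1-Cre* (mutant) hearts at E13.5, control hearts at E13.5, mutant hearts at E11.5 and control hearts at E11.5, all on a C57BL/6 background. *Chd7* encodes a chromatin remodeller, and *Mesp1-Cre* removes the floxed gene in the anterior mesoderm, which gives rise to most but not all cells of the heart. The control genotype is not settled by the sources: the labels say WT and give a cross of *Chd7fl/+;Mesp1-Cre* with *Chd7fl/fl* mice, while the methods give *Chd7+/+;Mesp1-Cre*, which that cross cannot yield. A whole heart mixes muscle, endocardium, epicardium, cushion mesenchyme and blood, so fewer cells of a type and less RNA per cell cannot be told apart here.

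Glycolysis splits glucose into pyruvate in the cytosol and yields ATP without oxygen, and lactate dehydrogenase then turns pyruvate into lactate. The embryonic heart relies on this pathway before its mitochondria mature. When oxygen falls, prolyl hydroxylases of the EGLN family stop marking the hypoxia-inducible factor (HIF) α subunits for destruction by the VHL ligase, and the stabilised factor binds a short DNA element and raises transcription of glucose transporters, glycolytic enzymes, *Vegfa* and genes that restrain mitochondria. Several of its targets, among them *Egln3* and *Egln1*, feed back on the pathway.

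Values are on the log2 scale, where 1 unit is a 2-fold difference, and ran between 2.74 and 14.56 over the 34760 probe sets. *Chd7* itself, read through its brightest probe set, was lower in mutant hearts at both stages, with no overlap between the genotypes. It was lower by 1.08 on the log2 scale at E13.5 (adjusted p = 0.0209) and by 1.29 at E11.5 (adjusted p = 0.00132). The paper reports a larger loss of *Chd7* at each stage. Heart muscle markers averaged 13.13 to 13.22 per heart at E13.5 and 12.79 to 12.96 at E11.5, near the top of the scale, so the tissue label held. Spread within arrays was wider at E13.5 (SD 2.38 to 2.42) than at E11.5 (SD 2.18 to 2.26), and the sources do not state whether both stages were normalised in 1 run, which bears on each difference between the stages below. A difference was called when the adjusted p was under 0.05 over all probe sets and the log2 fold change (FC) was over 0.5 in size.

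At E11.5 none of the 37 genes was called higher or lower in mutant hearts than in control hearts. The same call was made for 0.100% of all genes in the higher direction and 0.150% in the lower. At an unadjusted p under 0.05 in limma, 7 of the 37 were higher and 1 was lower, where 4.57% and 4.77% of all genes were. The sign was less evenly spread: 33 of the 37 had a positive log2 FC with a median of 0.19 (median of all genes 0.00), and among the 26 hypoxia-induced genes 25 were positive with a median of 0.31. The counts and medians were smaller without 1 heart, mutant E11.5 replicate 4. With it left out, 23 of the 37 were positive with a median of 0.05, and the 26 hypoxia-induced genes had 19 positive and a median of 0.10. In that fit 5 of the 37 passed an unadjusted p under 0.05, and the share of all genes that did was not counted. Of the 26 hypoxia-induced genes 2 passed, against 6 with all hearts, while of the 11 other members 3 passed, against 2. Still none of the 37 was called.

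In each heart the offset of a gene from the mean of the control hearts of its stage was taken, and the median over the hypoxia-induced genes was compared between hearts. Mutant E11.5 replicate 4 had a median offset of 0.94, while mutant E11.5 replicates 1, 2 and 3 had 0.17, 0.05 and 0.05, and the control E11.5 hearts lay between -0.05 and 0.07. All 26 genes stood above the control mean in that heart, 13 of them by more than 1 log2 unit (0.622% of all genes did). The median over all genes in the same heart was -0.03. The 11 other members had a median offset of 0.13 there, and none was more than 1 above the control mean.

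**Figure D1:**
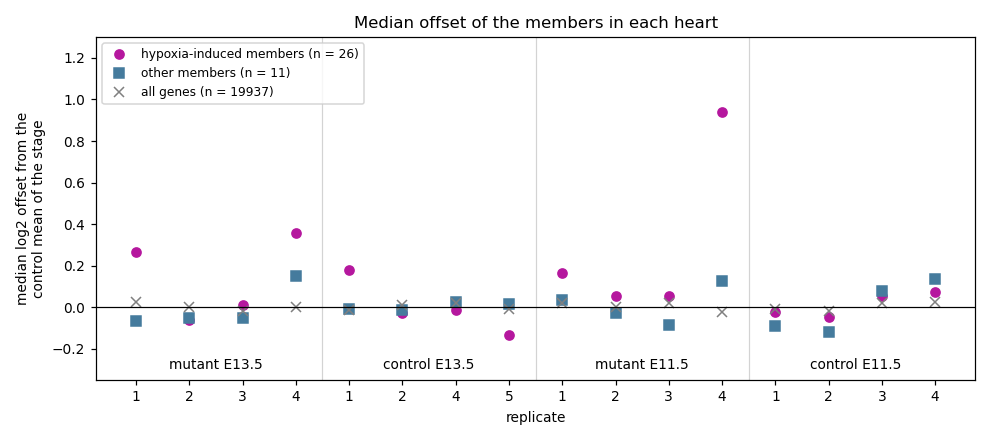
Median log2 offset from the control mean of the same stage, on the vertical axis, in each of the 16 hearts, for the 26 hypoxia-induced genes (circles), the 11 other members (squares) and all 19937 genes (crosses). The circle of mutant E11.5 replicate 4 lies at 0.94, and that of every other heart lies at 0.36 or below.

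Set against the 7 other hearts of its stage, mutant E11.5 replicate 4 gave the highest value for 25 of the 26 hypoxia-induced genes (96.2%, where it gave the highest value for 12.8% of all genes), the exception being *Pfkfb4*. For 9 of the 26 (34.6%) it exceeded every other E11.5 heart by over 1 log2 unit, which 0.191% of all genes did. Among the 11 other members it was the highest heart for 3, *Pfkp*, *Pgam1* and *Pfkl*.

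The gene farthest above its control mean in this heart was *Ndrg1*, a stress-responsive gene long used as a marker of hypoxia. *Ndrg1* read 9.13, 8.61, 8.65 and 11.18 in mutant E11.5 replicates 1 to 4, against 8.57, 8.37, 8.67 and 8.43 in control E11.5 replicates 1 to 4. The fourth mutant heart was 2.67 above the control mean, a 6.37-fold difference, mutant replicates 2 and 3 lay within the control range and replicate 1 above it. *Adm*, which encodes the vasodilator peptide adrenomedullin, read 8.64, 8.17, 8.16 and 9.94 in mutant hearts, against 7.60, 7.66, 7.10 and 7.70 in control hearts. Here all 4 mutant hearts lay above all 4 controls, with replicate 4 highest (offset 2.43). *Egln3*, an oxygen-sensing prolyl hydroxylase, read 9.42, 8.93, 9.57 and 11.56 in mutant hearts, against 9.28, 9.25, 9.22 and 9.04 in control hearts. *Egln3* replicates 1 to 3 of the mutant straddled the control values, and replicate 4 stood 2.36 above their mean.

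*Slc2a3*, the glucose transporter GLUT3, read 9.89, 10.12, 9.78 and 11.82 in mutant E11.5 hearts, against 9.73, 9.80, 9.85 and 9.90 in control hearts. *Hk2*, the inducible hexokinase of the first step of glycolysis, read 9.09, 9.22, 9.15 and 10.63 in mutant hearts, against 8.86, 9.29, 9.36 and 9.15 in control hearts. *Pfkfb3*, whose product makes the fructose 2,6-bisphosphate that speeds up phosphofructokinase, read 8.14, 7.82, 8.13 and 9.21 in mutant hearts, against 7.66, 7.80, 8.09 and 7.75 in control hearts. For these 3 genes of glucose use replicate 4 stood 2.00, 1.46 and 1.39 above the control mean, and at least 1 of the other mutant hearts lay within the control range for each. *Vegfa*, the growth factor that draws in blood vessels, read 10.51, 10.13, 10.31 and 11.64 in mutant hearts, against 10.29, 9.94, 10.09 and 10.02 in control hearts. *Ddit4*, an inhibitor of mTORC1 signalling, read 9.17, 9.05, 9.05 and 10.68 in mutant hearts, against 9.42, 9.10, 9.01 and 9.33 in control hearts. *Ddit4* was within the control range in all mutant hearts but replicate 4. *Ero1a* (listed under its older name *Ero1l*), an oxidase that helps proteins fold in the endoplasmic reticulum, read 9.98, 10.10, 9.93 and 11.29 in mutant hearts, against 9.92, 9.86, 10.08 and 10.06 in control hearts. *Bnip3*, a mitochondrial protein that promotes mitophagy, read 11.46, 11.34, 11.30 and 12.37 in mutant hearts, against 11.25, 11.04, 11.47 and 11.49 in control hearts. As with the genes before, replicate 4 was the highest E11.5 heart, by 1.20 over the next for *Ero1a* and by 0.87 for *Bnip3*.

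**Figure D2:**
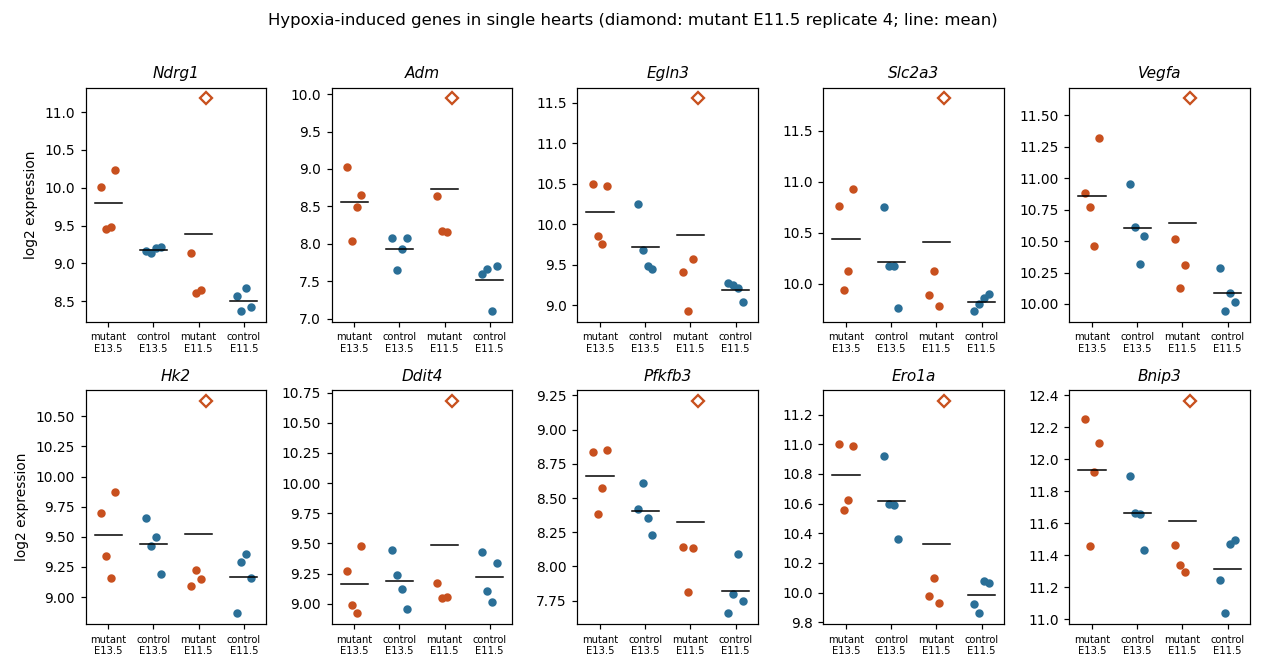
Log2 expression of the 10 members that stood farthest above their control mean in mutant E11.5 replicate 4, with a point for each heart and a line at the mean of each group of 4. The open diamond is mutant E11.5 replicate 4, which is the highest E11.5 heart in all 10 panels (11.18 for *Ndrg1*).

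The remaining hypoxia-induced genes stood less far above their control means in that heart. *Egln1*, *P4ha2* and *Car9* (a second oxygen-sensing hydroxylase, a collagen prolyl hydroxylase subunit and a carbonic anhydrase at the cell surface) were 1.04, 1.04 and 1.01 above their control means. *P4ha1*, *Ankrd37*, *Slc16a3* (the lactate exporter MCT4), *Higd1a*, *Kdm3a* and *Slc2a1* (the transporter GLUT1) lay 0.54 to 0.87 above. For *Higd1a* this depended on the probe set: the brightest gave 0.69, and the dimmer second one gave 1.18. *Pdk1*, a kinase that shuts off pyruvate dehydrogenase, was 0.46 above. The glycolytic enzymes of the hypoxia-induced set, *Aldoc*, *Pgk1*, *Aldoa* and *Ldha*, were 0.43, 0.29, 0.24 and 0.13 above. *Mxi1* and *Pfkfb4* stood 0.29 and 0.23 above. The enzymes outside that set were spread on both sides, between -0.25 for *Eno3* and 0.78 for *Pfkp*. Levels of *Aldoa* and *Ldha* were already near the top of the scale in control E11.5 hearts, at 12.90 to 13.02 and 13.18 to 13.45.

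Promoter windows were read because HIF binds a core that reads ACGTG or GCGTG. Windows of 300 bases, 250 before to 50 after each annotated start, came from RefSeq on build GRCm38.p6, and 34 of the 37 genes matched an entry (*Ndrg1*, *Slc2a3* and *Slc2a4* were not among them). Both strands were searched, so a match also reads CACGT or CACGC, and a CACGTG would count on both strands. ACGTG was in 23 of 35 windows of the hypoxia-induced genes (65.7%) and in 5 of 15 windows of the other members (33.3%), and 19.6% of all 32851 mouse windows held it. GCGTG was in 54.3%, 53.3% and 32.4% of the same 3 sets. Base composition was not matched between the sets, and a match is only a string of letters in this window. The hypoxia-induced set was chosen as known HIF targets, so its higher ACGTG share is a description and supports nothing. The windows below belong to the first 4 genes, by offset in mutant E11.5 replicate 4, that have 1 window and an ACGTG match in it, and capitals mark the match on either strand.
*Egln3*, chr12:54203825-54204124, minus strand, 1 match: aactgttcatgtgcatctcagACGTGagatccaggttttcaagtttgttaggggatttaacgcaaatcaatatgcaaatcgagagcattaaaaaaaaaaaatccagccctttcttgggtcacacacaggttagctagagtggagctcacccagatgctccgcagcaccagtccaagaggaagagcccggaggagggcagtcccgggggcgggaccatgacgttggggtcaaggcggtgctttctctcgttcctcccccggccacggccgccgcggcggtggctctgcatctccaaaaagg
*Hk2*, chr6:82774405-82774704, minus strand, 2 matches: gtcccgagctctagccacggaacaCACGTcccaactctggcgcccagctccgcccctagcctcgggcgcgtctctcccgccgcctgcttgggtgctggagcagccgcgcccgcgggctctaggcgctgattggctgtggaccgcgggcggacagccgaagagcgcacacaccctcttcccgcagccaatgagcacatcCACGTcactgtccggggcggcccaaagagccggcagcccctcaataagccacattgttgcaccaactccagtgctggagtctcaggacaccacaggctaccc
*Ddit4*, chr10:59951721-59952020, minus strand, 1 match: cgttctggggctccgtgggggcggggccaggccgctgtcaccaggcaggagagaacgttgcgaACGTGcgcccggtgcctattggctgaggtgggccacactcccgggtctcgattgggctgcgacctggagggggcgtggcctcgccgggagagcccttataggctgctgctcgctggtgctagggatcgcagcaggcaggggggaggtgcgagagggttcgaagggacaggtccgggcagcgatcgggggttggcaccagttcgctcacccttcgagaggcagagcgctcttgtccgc
*Ero1a*, chr14:45318523-45318822, minus strand, 1 match: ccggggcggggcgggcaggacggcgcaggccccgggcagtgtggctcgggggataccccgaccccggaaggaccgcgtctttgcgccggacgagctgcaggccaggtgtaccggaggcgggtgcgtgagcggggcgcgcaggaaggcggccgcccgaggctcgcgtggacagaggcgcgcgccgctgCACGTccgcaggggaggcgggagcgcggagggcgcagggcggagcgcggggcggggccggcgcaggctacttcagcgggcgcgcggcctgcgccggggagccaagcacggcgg
All 5 matches in these 4 windows lie before the annotated start. *Adm*, second by offset, held GCGTG and no ACGTG in its window.

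The genotype comparison at E11.5 gave its largest log2 FC among the members for *Adm*, at 1.21 (SE 0.32, adjusted p = 0.172), and without replicate 4 it was 0.81 (SE 0.22, adjusted p = 0.171). *Adm* was thus not called with either set of hearts. *Ndrg1* had a log2 FC of 0.88 (SE 0.41, adjusted p = 0.518), which was 0.29 (adjusted p = 0.656) without replicate 4. *Pfkfb3* had 0.50 (SE 0.23, adjusted p = 0.509) with all hearts and 0.21 (adjusted p = 0.701) without replicate 4. *Hk2* and *Ddit4* had 0.36 and 0.27 with all hearts and changed sign without replicate 4, to -0.01 and -0.13. The groups did not overlap for 3 of the 37 genes, *Pgk1*, *Adm* and *Ankrd37*, all higher in mutant hearts, where 1.99% of all genes were apart in that direction and 1.94% in the other.

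**Figure D3:**
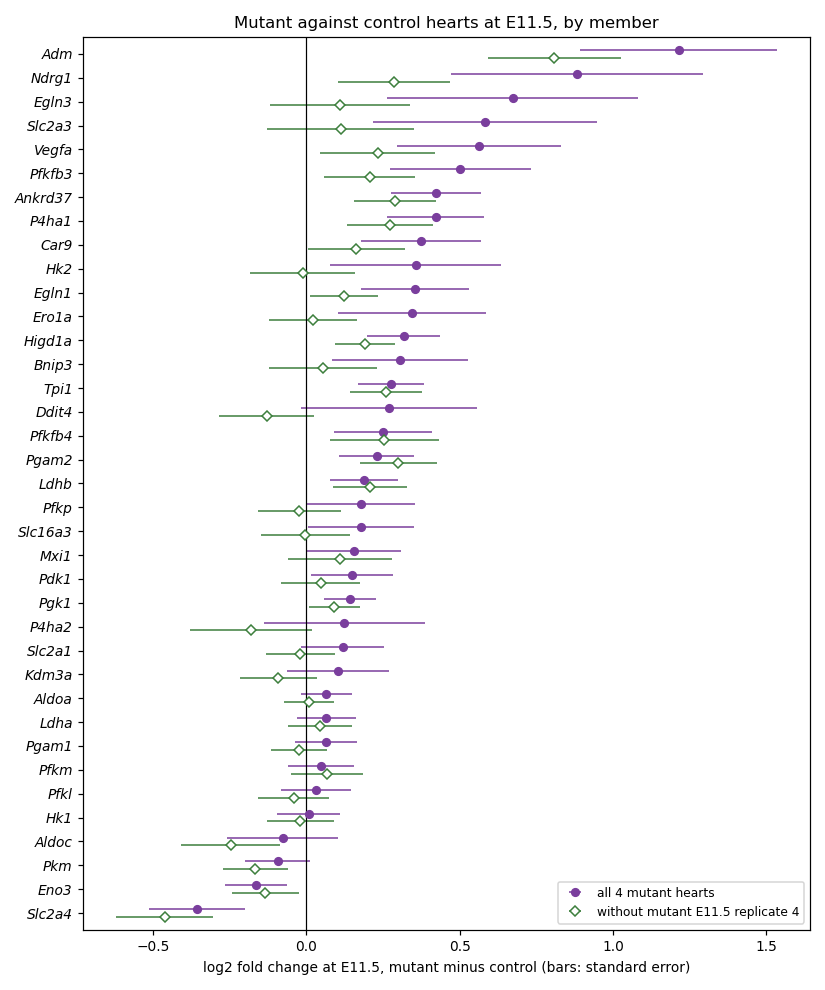
Log2 fold change of each of the 37 members at E11.5, mutant minus control, with its standard error, from all hearts (filled circles) and without mutant E11.5 replicate 4 (open diamonds). *Adm* is at 1.21 and 0.81, and the median over members is 0.19 with that heart and 0.05 without it.

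Among the genes outside the hypoxia-induced set, *Tpi1* (triose phosphate isomerase) gave 0.28 between the genotypes at E11.5 (SE 0.11, adjusted p = 0.419), and *Slc2a4* (the insulin-responsive transporter GLUT4) had -0.36 (SE 0.16, adjusted p = 0.490). For *Slc2a4* the mutant hearts read 8.95, 8.35, 8.86 and 9.14, against 9.32, 8.97, 9.07 and 9.36 in control hearts, so the groups overlapped. Muscle enzymes *Pfkm*, *Pgam2* and *Eno3* had 0.05, 0.23 and -0.16, and none of these 5 genes was called. Without mutant E11.5 replicate 4, *Tpi1* had 0.26, *Slc2a4* -0.46, *Pfkm* 0.07, *Pgam2* 0.30 and *Eno3* -0.13, and again none was called. All 5 markers of cushion mesenchyme had lower means in mutant than in control E11.5 hearts, and none was called. Their mean was 9.22 to 9.53 in mutant E11.5 hearts, against 9.56 to 9.88 in control hearts, and the part of this in any member's value was not tested. Epicardial markers averaged 10.42 to 10.88 in mutant hearts and 10.21 to 10.48 in control hearts. Mutant E11.5 replicate 4 itself had median offsets of 0.12 for 8 heart muscle markers, 0.48 for 5 epicardial markers, -0.40 for 5 cushion markers, -0.24 for 7 erythroid markers and -0.54 for 6 macrophage markers.

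Beside *Egln3* and *Egln1*, 9 genes for HIF subunits and their regulators that are not members were read in mutant E11.5 replicate 4. Their median offset was -0.03, 3 of the 9 were higher in it than in every other E11.5 heart, and none was more than 1 above the control mean, with *Hif1a* at -0.21, *Epas1* at 0.29, *Vhl* at -0.03 and *Hif1an* at -0.27. Of 22 further hypoxia-induced genes outside the list, 18 lay above the control mean with a median of 0.39, and 5 exceeded it by over 1. The highest were *Bhlhe40* (a transcriptional repressor) at 2.11, *Stc2* at 1.91 and *Hilpda* (a lipid droplet protein) at 1.77. Other stress lists, which share *Atf3*, were also high in the same heart: all 16 genes of the integrated stress response were above the control mean, with a median of 0.68 and 3 over 1 (*Chac1* 1.34, *Vldlr* 1.29 and *Mthfd2* 1.00). Over the other 7 E11.5 hearts that list had medians between -0.18 and 0.13. Of 12 immediate early genes, 10 were above with a median of 0.34, led by *Ier3* at 2.05 and *Fos* at 1.35. Over 8 p53 targets the median was -0.15. None of these lists had a gene called between the genotypes at E11.5.

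At E13.5, too, none of the 37 genes was called between the genotypes, where 0.0150% of all genes were called higher and 0.0301% lower. No member passed an unadjusted p under 0.05 in limma. This mark was passed by 1.97% of all genes in the higher direction and 1.98% in the lower. With mutant E11.5 replicate 4 left out of the shared fit, 3 members passed it, *P4ha1*, *Adm* and *Ndrg1*, all higher. The share of all genes that passed in that fit was not counted. The median log2 FC over the 37 was 0.12 with 29 positive, and over the 26 hypoxia-induced genes it was 0.15 with 23 positive. Median offsets of the hypoxia-induced genes were 0.27, -0.06, 0.01 and 0.36 in mutant E13.5 replicates 1 to 4, against 0.18, -0.03, -0.01 and -0.14 in control E13.5 replicates 1, 2, 4 and 5. Replicates 1 and 4 of the mutant were the highest of these 8 hearts, control replicate 1 came next, and no heart was set apart as replicate 4 was at E11.5.

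*Adm* read 9.03, 8.04, 8.50 and 8.65 in mutant E13.5 hearts, against 8.08, 7.65, 7.93 and 8.08 in control hearts, a log2 FC of 0.62 (SE 0.32, adjusted p = 1.00). *Ndrg1* read 10.01, 9.45, 9.48 and 10.23 in mutant hearts, against 9.17, 9.13, 9.21 and 9.21 in control hearts, a log2 FC of 0.61 (SE 0.41, adjusted p = 1.00). Both SEs come from the spread over all groups, in which mutant E11.5 replicate 4 stood far from the others. With that heart left out of the limma fit, *Adm* had an SE of 0.20 (adjusted p = 0.857). *Ndrg1* then had an SE of 0.17 (adjusted p = 0.539), and neither was called. The *Ndrg1* groups did not overlap, while 1 mutant heart lay within the control range for *Adm*. Of the 37 genes, *Pgam2* and *Ndrg1* were apart in the higher direction (2.06% of all genes) and *Eno3* in the lower (2.02% of all genes). Neither *Pgam2* (log2 FC 0.15) nor *Eno3* (-0.19), the muscle forms of phosphoglycerate mutase and enolase, was called.

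The other genes with high values in mutant E11.5 replicate 4 overlapped between the genotypes at E13.5. *Egln3* read 10.50, 9.86, 9.76 and 10.47 in mutant E13.5 hearts, against 10.25, 9.68, 9.49 and 9.45 in control hearts. *Slc2a3* read 10.76, 9.93, 10.12 and 10.93 in mutant hearts, against 10.75, 10.17, 10.17 and 9.76 in control hearts. *Vegfa* read 10.88, 10.77, 10.46 and 11.32 in mutant hearts, against 10.95, 10.62, 10.31 and 10.54 in control hearts. In these 3 the high hearts were replicates 1 and 4 of the mutant and replicate 1 of the control. *Hk2* read 9.70, 9.34, 9.16 and 9.87 in mutant hearts, against 9.66, 9.42, 9.50 and 9.19 in control hearts. *Ddit4* read 9.27, 8.99, 8.92 and 9.48 in mutant hearts, against 9.44, 9.23, 9.12 and 8.95 in control hearts. Both genes had the same high hearts as before and means that lay within 0.08 of each other. *Pfkfb3* read 8.84, 8.38, 8.58 and 8.85 in mutant hearts, against 8.42, 8.61, 8.35 and 8.23 in control hearts. *Bnip3* read 12.25, 11.46, 11.92 and 12.10 in mutant hearts, against 11.90, 11.66, 11.66 and 11.43 in control hearts. Mutant replicate 2 was the lowest or next to lowest mutant heart for all 7 of these genes.

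The difference between the stages in the genotype effect (E13.5 minus E11.5) was tested for every gene, and none of the 37 was called, nor was any of the 19937 genes (0.00%). At an unadjusted p under 0.05 in limma 1 member passed, *Car9*, at -0.62 (SE 0.28, adjusted p = 1.00), where 1.85% of all genes passed in that direction and 2.12% in the other. Without mutant E11.5 replicate 4 it was -0.41 and no member passed. Its log2 FC between the genotypes, with all hearts, was -0.24 at E13.5 and 0.37 at E11.5. *Car9* was also dim, reading 6.13 to 6.73 over the E13.5 hearts and 5.31 to 6.75 over the E11.5 hearts. The median difference over the hypoxia-induced genes was -0.13 with all hearts and 0.06 without mutant E11.5 replicate 4.

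Between the stages, several enzymes of glycolysis, led by *Tpi1*, *Pgam2* and *Pfkm*, were higher at E13.5 than at E11.5 in both genotypes. Through their brightest probe sets, *Hk1*, *Hk2*, *Aldoa*, *Pgk1*, *Pgam1*, *Ldha* and *Ldhb* were called in neither. In mutant hearts 11 of the 37 members were called higher and none lower, where 16.8% of all genes were called higher and 12.8% lower. In control hearts 11 of 37 were likewise higher and none lower, where 16.5% and 12.3% of all genes were called. These comparisons use separate hearts in each genotype but share 1 estimate of the spread over all 16 arrays, so they are not independent. The 9 genes called in both were *Pfkm*, *Pfkp*, *Aldoc*, *Tpi1*, *Pgam2*, *Eno3*, *Pkm*, *Mxi1* and *Higd1a*, where 13.2% of all genes were called in both. With the median over a gene's probe sets instead of the brightest, *Ldhb* was gained and *Higd1a* was lost in both genotypes. Of the 11 members outside the hypoxia-induced set, 8 were called in mutant hearts and 6 in control hearts, with a median log2 FC of 0.68 and 0.59. Of the 26 hypoxia-induced genes, 3 were called in mutant hearts and 5 in control hearts, with medians of 0.23 and 0.37. Without mutant E11.5 replicate 4 these were 10 and 8, with medians of 0.40 and 0.37.

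The counts followed the scaling of the arrays. After quantile normalisation of the deposited columns 5 members were called in mutant hearts and 8 in control hearts, beside 11.6% and 11.4% of all genes, and after cyclic loess normalisation they were 4 and 7, beside 11.3% and 10.9%. Leaving out mutant E11.5 replicate 4 moved them the other way, to 18 in mutant hearts (16.5% of all genes) and 14 in control hearts (16.6%). The genes gained in mutant hearts were *Bnip3*, *Egln3*, *Ero1a*, *Kdm3a*, *Ndrg1*, *Pfkfb3* and *Vegfa*, all hypoxia-induced. *Tpi1*, *Pfkm*, *Pgam2* and *Pfkp* were called in both genotypes under each of the alternatives run. With no threshold on the fold, 14 members were higher in mutant hearts and 17 in control hearts and none lower, where 26.9% and 26.4% of all genes were higher and 17.4% and 16.7% lower. All 4 hearts at E13.5 lay above all 4 at E11.5 for 13 members in mutant hearts (24.8% of all genes) and for 23 in control hearts (26.8%), and no member was apart in the other direction, as 14.2% and 15.5% of all genes were.

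*Tpi1*, which interconverts the triose phosphates, had the largest change. It read 13.06, 13.18, 13.10 and 13.27 in mutant E13.5 hearts, against 12.22, 11.81, 12.32 and 12.18 in mutant E11.5 hearts, a log2 FC of 1.02 (SE 0.11, adjusted p = 5.92e-06). In control hearts it read 13.15, 13.06, 12.94 and 13.00 at E13.5, against 11.90, 11.79, 11.94 and 11.80 at E11.5, a log2 FC of 1.18 (SE 0.11, adjusted p = 1.76e-06). All E13.5 hearts lay above all E11.5 hearts. *Pgam2*, the muscle phosphoglycerate mutase, read 11.63, 11.65, 11.68 and 11.65 in mutant E13.5 hearts, against 11.05, 10.45, 10.83 and 10.50 in mutant E11.5 hearts. Control hearts gave 11.35, 11.55, 11.58 and 11.55 at E13.5, against 10.37, 10.42, 10.51 and 10.61 at E11.5. The *Pgam2* log2 FC was 0.95 (SE 0.12, adjusted p = 3.04e-05) in mutant and 1.03 (SE 0.12, adjusted p = 1.59e-05) in control hearts, again with no overlap.

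The 3 phosphofructokinase genes, which encode subunits of the enzyme that commits sugar to glycolysis, were each higher at E13.5 in both genotypes, *Pfkl* in control hearts by less than the fold threshold. *Pfkm*, the muscle form, read 11.26, 11.44, 11.23 and 11.46 in mutant E13.5 hearts, against 10.55, 10.38, 10.59 and 10.43 in mutant E11.5 hearts. Control hearts read 11.21, 11.32, 11.40 and 11.37 at E13.5, against 10.32, 10.23, 10.56 and 10.65 at E11.5. *Pfkm* thus had a log2 FC of 0.86 in mutant (adjusted p = 2.44e-05) and 0.89 in control hearts (adjusted p = 1.96e-05). *Pfkp*, the platelet form, read 11.44, 11.01, 11.01 and 11.53 in mutant E13.5 hearts, against 10.24, 10.29, 10.17 and 11.04 in mutant E11.5 hearts. In control hearts *Pfkp* read 11.08, 11.14, 10.97 and 11.19 at E13.5, against 10.18, 10.13, 10.27 and 10.44 at E11.5. The only overlap came from mutant E11.5 replicate 4, at 11.04, and the log2 FC was 0.81 in mutant and 0.84 in control hearts. *Pfkl*, the liver form, read 11.57, 11.39, 11.32 and 11.53 in mutant E13.5 hearts, against 10.76, 10.91, 10.87 and 11.14 in mutant E11.5 hearts. Control hearts read 11.60, 11.35, 11.34 and 11.20 at E13.5, against 10.75, 10.79, 11.04 and 10.96 at E11.5. *Pfkl* was called at 0.53 in mutant hearts and fell just short of the fold threshold at 0.49 in control hearts, with adjusted p of 0.00184 and 0.00351.

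Enzymes of other steps were called in both genotypes as well. *Eno3*, the muscle enolase, read 12.27, 12.48, 12.39 and 12.33 in mutant E13.5 hearts, against 11.89, 11.59, 11.66 and 11.59 in mutant E11.5 hearts. *Eno3* in control hearts read 12.49, 12.59, 12.57 and 12.57 at E13.5, against 11.75, 11.67, 11.96 and 12.01 at E11.5. Its log2 FC was 0.68 in mutant and 0.71 in control hearts. *Pkm*, pyruvate kinase, read 12.56, 12.62, 12.51 and 12.83 in mutant E13.5 hearts, against 11.86, 11.96, 11.92 and 12.20 in mutant E11.5 hearts. Control hearts read 12.76, 12.63, 12.63 and 12.67 at E13.5, against 12.07, 11.88, 12.23 and 12.13 at E11.5, and the log2 FC of *Pkm* was 0.65 in mutant and 0.59 in control hearts. *Aldoc*, an aldolase, read 9.78, 9.28, 9.49 and 9.81 in mutant E13.5 hearts, against 8.89, 8.49, 8.74 and 9.38 in mutant E11.5 hearts. *Aldoc* overlapped between the stages in mutant hearts through replicate 4 at E11.5. In control hearts it read 9.97, 9.51, 9.90 and 9.61 at E13.5, against 8.84, 8.81, 9.06 and 9.11 at E11.5, and its log2 FC was 0.71 in mutant and 0.79 in control hearts.

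**Figure D4:**
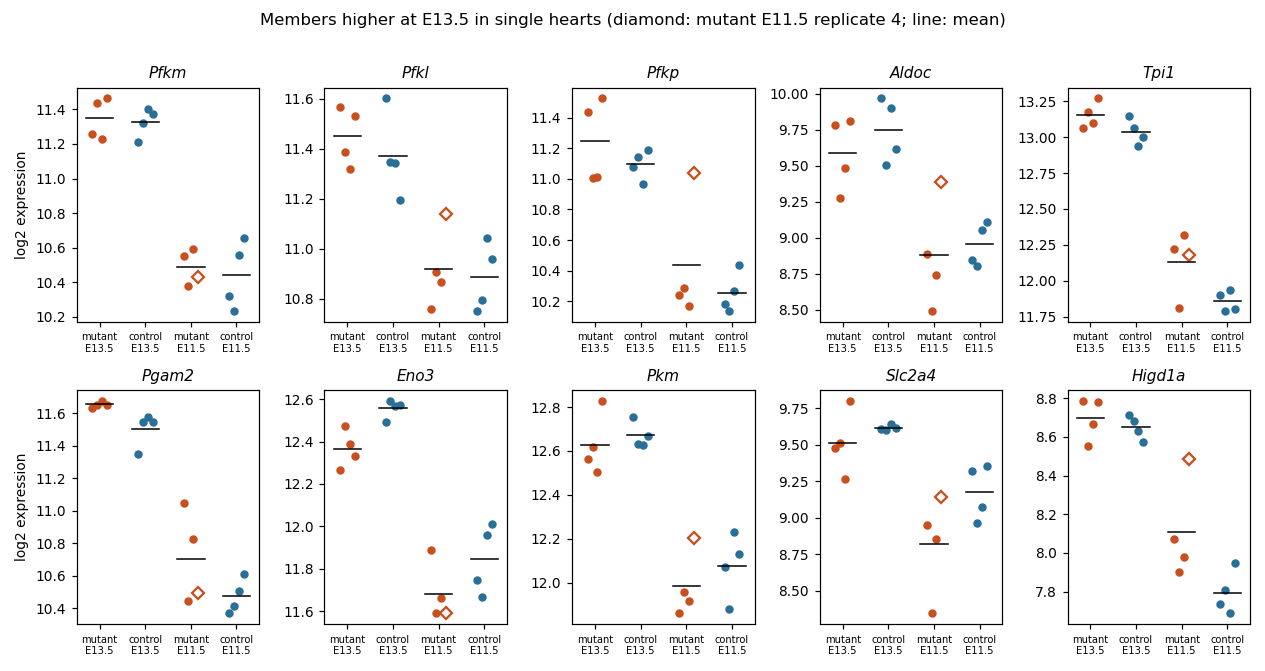
Log2 expression in each heart of 10 members called higher at E13.5 in at least 1 genotype, with a line at the mean of each group of 4 and an open diamond for mutant E11.5 replicate 4. In control hearts all 4 E13.5 points lie above all 4 E11.5 points in every panel, and in mutant hearts *Pfkp* and *Aldoc* overlap between the stages.

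Of the 3 glucose transporters, *Slc2a4* was called, in mutant hearts. *Slc2a4* read 9.48, 9.51, 9.26 and 9.80 in mutant E13.5 hearts, against the E11.5 mutant values above, a log2 FC of 0.69 (SE 0.16, adjusted p = 0.00267). Control E13.5 hearts read 9.61, 9.60, 9.64 and 9.61, and the log2 FC of 0.44 (adjusted p = 0.0355) was under the fold threshold. The genotypes were not shown to differ in this change, since the difference of 0.25 (SE 0.22) had an adjusted p of 1.00. *Slc2a1* had log2 FC of -0.05 in mutant and -0.02 in control hearts and *Slc2a3* had 0.03 and 0.40, none of them called.

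Of the hypoxia-induced genes outside glycolysis, *Higd1a*, a mitochondrial inner membrane protein, read 8.79, 8.55, 8.67 and 8.78 in mutant E13.5 hearts, against 8.07, 7.90, 7.98 and 8.49 in mutant E11.5 hearts. Control hearts read 8.71, 8.68, 8.63 and 8.57 at E13.5, against 7.73, 7.81, 7.69 and 7.95 at E11.5. *Higd1a* was called at 0.59 in mutant and 0.86 in control hearts, but its dimmer second probe set gave -0.07 and 0.11 and was not called. *Mxi1*, a repressor that opposes MYC, read 9.69, 9.44, 9.57 and 10.08 in mutant E13.5 hearts, against 9.03, 9.14, 9.22 and 9.31 in mutant E11.5 hearts. In control hearts *Mxi1* read 9.51, 9.46, 9.52 and 9.62 at E13.5, against 9.18, 8.54, 9.17 and 9.17 at E11.5. The changes of 0.52 and 0.51 lay just past the fold threshold (adjusted p = 0.0133 and 0.0153). *Car9* read 6.39, 6.13, 6.22 and 6.43 in mutant E13.5 hearts, against 6.06, 5.79, 5.86 and 6.75 in mutant E11.5 hearts. Control hearts read 6.73, 6.52, 6.57 and 6.32 at E13.5, against 5.89, 6.05, 5.31 and 5.70 at E11.5. *Car9* was called at 0.80 in control hearts and not at 0.18 in mutant hearts, a pair whose difference was the -0.62 given above. *Ero1a* read 11.00, 10.56, 10.62 and 10.99 in mutant E13.5 hearts and 10.92, 10.59, 10.59 and 10.36 in control E13.5 hearts. Set against the E11.5 values above, its log2 FC was 0.47 in mutant (adjusted p = 0.130) and 0.64 in control hearts (adjusted p = 0.0458), a call that 14 of 26 alternatives did not make.

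The remaining members were not called between the stages in either genotype. *Aldoa*, *Pgk1* and *Ldha* had small changes of 0.34, 0.22 and 0.29 in mutant hearts and 0.39, 0.32 and 0.35 in control hearts, each with an adjusted p under 0.05 and under the fold threshold. *Hk1* (the constitutive hexokinase), *Pgam1*, *Ldhb*, *Pdk1* and *Slc16a3* had between 0.07 and 0.25 in mutant hearts and between 0.12 and 0.29 in control hearts. Among them *Hk1* in control hearts, at 0.28, also had an adjusted p under 0.05 in limma (0.0360). The 14 others, *Hk2*, *Pfkfb3*, *Pfkfb4* and 11 hypoxia-induced genes outside glycolysis, had between -0.32 and 0.40 in mutant hearts and between -0.03 and 0.67 in control hearts. Of these 14, *Pfkfb3*, *Vegfa*, *Ndrg1*, *Egln1*, *Egln3* and *Kdm3a* were higher without overlap in control hearts (26.8% of all genes). Fitting the 8 control arrays alone called 15 members, gaining *Egln3*, *Ndrg1*, *Pfkfb3* and *Vegfa*, and the 8 mutant arrays alone called the same 11. The share of all genes called in those fits was not counted. *Ldhb*, the heart form of lactate dehydrogenase, depended on the probe set: its brightest gave 0.13 in mutant and 0.20 in control hearts, and its second gave 1.10 (adjusted p = 2.65e-05) and 1.00 (adjusted p = 5.89e-05). *Pkm* was called through both of its probe sets in both genotypes, while *Hk1* and *Bnip3* were called through neither.

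**Figure D5:**
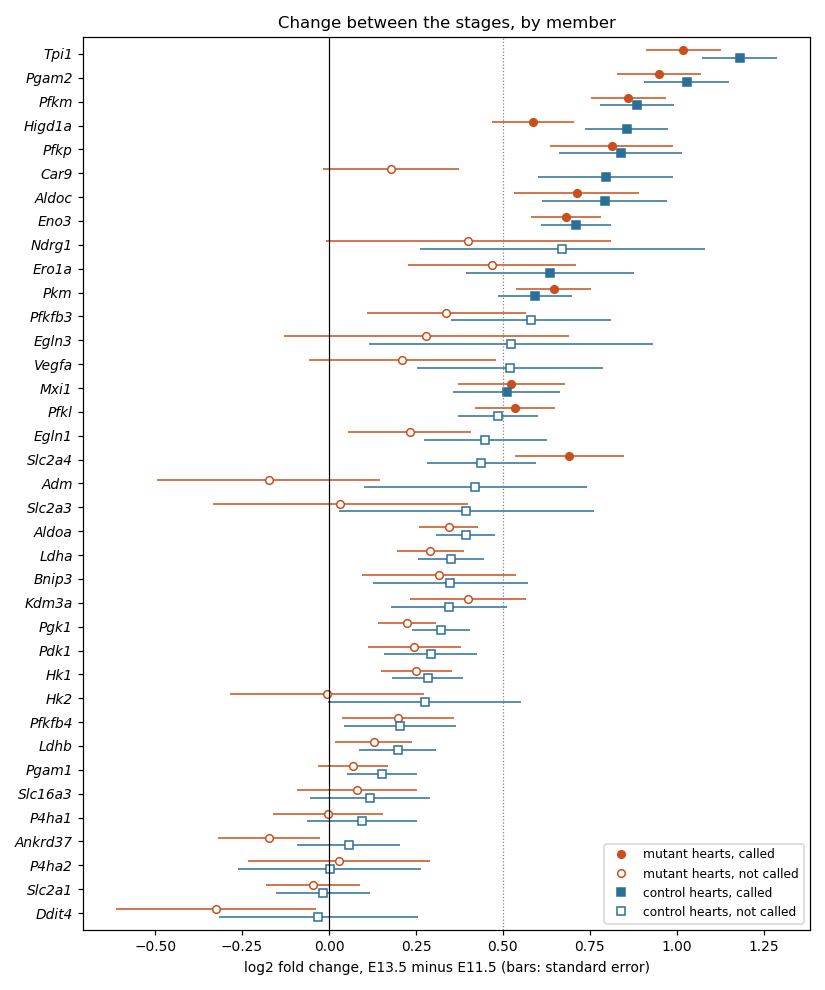
Log2 fold change of each of the 37 members between the stages, E13.5 minus E11.5, with its standard error, in mutant hearts (circles) and control hearts (squares), filled where called. *Tpi1* leads at 1.02 and 1.18, and *Ddit4* is last at -0.32 and -0.03.

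Genes around the pathway were read from further lists, whose counts stand beside the 16.8% of all genes called higher and 12.8% called lower in mutant hearts, and 16.5% and 12.3% in control hearts. *Mpc1*, a subunit of the carrier that takes pyruvate into mitochondria, was higher at E13.5 by 0.99 in mutant and 0.95 in control hearts (adjusted p = 6.79e-05 and 9.47e-05), and *Pdk4*, another kinase that shuts off pyruvate dehydrogenase, by 0.67 and 0.73. Of 10 such pyruvate and lactate genes, 5 were called higher and 1 lower in mutant hearts, and 3 higher and 1 lower in control hearts. The one called lower was *Pklr*, the pyruvate kinase of liver and red cells, at -1.25 in mutant and -1.64 in control hearts. Of 9 HIF and oxygen-sensing genes, *Arnt* (the partner subunit of HIF, 0.53 in mutant and 0.52 in control hearts) and *Hif1an* (an asparaginyl hydroxylase that inhibits HIF, 0.70 and 0.50) were called higher in both genotypes, and *Vhl* in control hearts at 0.53. *Hif1a* had 0.27 and 0.32 and was not called. Of 22 other hypoxia-induced genes 7 were called higher in mutant and 6 in control hearts, among them *Hmox1* at 1.05 and 1.36 and *Lox* at 1.02 and 0.97.

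Cell type markers also differed between the stages, and their part in the changes of the members was not tested. Heart muscle markers averaged 13.13 to 13.18 in mutant E13.5 hearts against 12.80 to 12.96 in mutant E11.5 hearts, with 1 of 8 called in mutant and 2 of 8 in control hearts. All 6 macrophage markers were called higher in both genotypes, with a median log2 FC of 1.29 in mutant and 1.07 in control hearts. Erythroid markers had medians of -0.46 in mutant and -0.40 in control hearts, with 1 and 2 of 7 called lower.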

How the data were processed

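Total RNA from single whole hearts was hybridised to Affymetrix Mouse Gene 1.0 ST arrays. The authors ran RMA from the affy R package and deposited log2 values per probe set, with no probe-level depth in them, so the 4 hearts per group limit the precision. Tool versions are not given in the sources used here. The values were used as deposited. Of 34760 probe sets, 21640 named 1 gene, and each gene was read through its brightest such probe set. Promoter windows and names came from RefSeq tables on GRCm38.p6.

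All 16 arrays were fitted in limma 3.58.1 (R 4.3.3) with a mean per group and default moderation, leaving 12 residual degrees of freedom. These comparisons were drawn from it: mutant minus control at each stage, the difference between these, and E13.5 minus E11.5 in each genotype. P-values were Benjamini-Hochberg adjusted over all probe sets, two-sided, and the fold threshold of 0.5 was not applied to the difference between the stages. Shares of all genes were counted over 19937 genes. The fit was tested on simulated data. Alternatives were array weights, a prior both trended and robust, fitting each comparison alone, quantile, cyclic loess and median scaling, leaving out dim probe sets (mean below percentile 40) or probe sets naming several genes, the median over probe sets, a replicate term, no fold threshold, and leaving out each heart.

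The members and gene lists were chosen with earlier results of these data known. Every measured member was accounted for. Values of each heart were printed for called members (at most 10 per comparison), for the 10 farthest above the control mean in mutant E11.5 replicate 4, and for those with an unadjusted p under 0.05 and log2 FC over 0.5 between genotypes; each further list has up to 4 named values. Hearts were separate embryos by the methods.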

Additional observations from a re-analysis of the deposited data

Results flagged for a closer look

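Of 148 groups of 4 hearts examined over the 37 members, 11 had a heart far from the other 3, the gap to the nearest of them exceeding Dixon's critical value for 4 samples. Chance gives about 1 in 20 groups, but the 11 cannot be set against this rate, since the list was drawn up with these values seen. Of the 11, 8 were mutant E11.5 replicate 4, the heart that the rule of the gene list names, so these 8 are a description and support nothing. It was high each time: *Slc2a3* at 11.82 (the other 3 at 9.78 to 10.12), *Hk2* at 10.63 (9.09 to 9.22), *Pfkp* at 11.04 (10.17 to 10.29), *Pgk1* at 12.95 (12.74 to 12.75), *Bnip3* at 12.37 (11.30 to 11.46), *Egln1* at 11.20 (10.22 to 10.34), *Ddit4* at 10.68 (9.05 to 9.17) and *Ero1a* at 11.29 (9.93 to 10.10). Of these *Pfkp* alone is outside the hypoxia-induced set. Control hearts were low in the other 3: *Pgam2* at 11.35 in control E13.5 replicate 1 (11.55 to 11.58), *Adm* at 7.10 in control E11.5 replicate 3 (7.60 to 7.70) and *Mxi1* at 8.54 in control E11.5 replicate 2 (9.17 to 9.18).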

How the results depend on the processing

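No member was called between the genotypes at either stage, or in the difference, under the alternatives run or with any heart left out. The difference was not fitted on 8 arrays alone, since it needs all 4 groups. Between the stages, the 11 members higher in mutant hearts were 5 after quantile and 4 after cyclic loess normalisation. The 11 in control hearts were 7 after cyclic loess, 15 in a fit of the 8 control arrays alone and 17 with no fold threshold. With each heart left out the counts ran from 9 to 18 in mutant hearts, the highest without mutant E11.5 replicate 4, and from 9 to 14 in control hearts. The median offset of the hypoxia-induced genes in that heart was 0.94, or 0.87 to 0.97 under the alternatives. Of the single genes tested under each alternative (those called between the stages, and *Adm*, *Ndrg1* and *Pfkfb3* at E11.5), none changed sign, while other members, such as *Hk2* (-0.01) and *Ddit4* (-0.13), did at E11.5 without mutant E11.5 replicate 4. Same-numbered hearts did not deviate together (correlations of -0.05 to 0.04 over 7 pairs, against -0.17 to 0.13 over pairs of unlike number). This gave no sign that the numbers pair hearts, and it cannot exclude that they do. A replicate block gave 11 members higher in mutant and 10 in control hearts and none between the genotypes. With 4 hearts per group, a 0 count between genotypes does not show that levels were equal.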
